A study of Dimocarpus longan with 9 samples.

Results

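The root-enriched genes outside transcription factors were 246 of the 30014 genes in the expression table of longan (Dimocarpus longan), a subtropical fruit tree. They were chosen from the measured values: a tissue specificity index (tau) of 0.9 or more, the highest level of 9 tissues in root, and at least 5 FPKM there. FPKM is the number of fragments scaled to transcript length and to the size of the library. Tau is the sum over tissues of 1 minus the level relative to the highest tissue, divided by 8, with levels taken as log2(FPKM + 1). It is 0 for a gene at equal level everywhere and 1 for a gene listed at 0 in every tissue but 1. Genes in the study's list of transcription factors were left out, which removed 22 genes that met the other conditions, at 5.23 to 78.7 FPKM in root (median 14.0 FPKM). Because the values chose the members, their preference for root is a description and was not tested.

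The study sequenced RNA of the cultivar "SJM" (sijimi), grown in an experimental field with no treatment named, in 9 tissues with 1 library each: the vegetative root, leaf and stem, the flower and flower bud, and the seed, pulp, pericarp and young fruit. The reads were mapped to the genome of another cultivar, "HHZ" (Honghezi). No source used here gives the age of these trees, the part of the root taken, or whether several trees were pooled. The methods list mature fruit where the sample labels have stem, and the labels were followed.

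Roots take up water and mineral nutrients, anchor the tree, and meet the microbes of the soil. Their tissues are built for this work, with root hairs and transporters at the surface, an endodermis sealed by lignin and suberin around the vascular cylinder, and a rich chemistry of glycosylated, acylated and sulfated compounds and of terpenoids. Genes used mainly in roots therefore often encode transporters, cell wall proteins, proteases and enzymes of specialised metabolism.

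With 1 library per tissue there was no replicate, so no difference carries an error and none was tested. The table holds no read counts, so no counting interval could be given. Relative depth, read from the spacing of the low values, ran from -0.12 (pulp) to 0.54 (leaf) on the log2 scale against the root library. The number of genes above 0 ran from 19322 in pulp to 23118 in flower bud, with 22205 in root. The deposited identifiers carry no gene names, so the label root could not be checked against named root or leaf markers. In such bulk samples, fewer cells of a type and less RNA per cell cannot be told apart.

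Most of the 246 genes were moderately expressed in root and close to 0 in the other tissues. Their root level had a median of 17.9 FPKM, with quartiles of 9.28 and 45.1 FPKM and a range of 5.05 to 3438 FPKM. By root level, 70 genes were between 5 and 10 FPKM, 147 between 10 and 100 FPKM, and 29 at 100 FPKM or more. In 157 genes (63.8%) no other tissue reached 1 FPKM, and 35 genes (14.2%) were listed at 0 in all the other 8 tissues. No member was above 0 in all 9 tissues. Root exceeded the next highest tissue by a median of 3.51 on the log2(FPKM + 1) scale (range 0.93 to 11.08), a scale that understates the difference for low genes. The number of genes depended on how low values were weighted: it was 138 when the FPKM were first divided by 0.1 and 846 without the log.

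**Figure D1:**
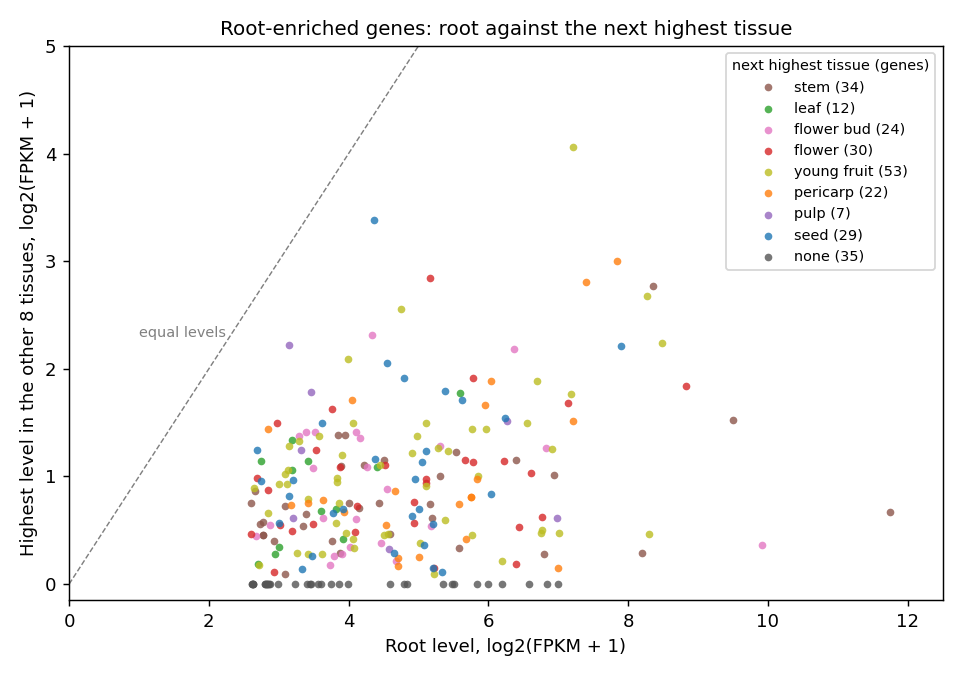
Each point is 1 of the 246 root-enriched genes, with its root level on the x axis and its highest level among the other 8 tissues on the y axis, both as log2(FPKM + 1), coloured by the tissue of that level; the dashed line marks equal levels. All points lie below the line, the closest at a difference of 0.93, with 35 of them on the zero line, and 7 genes reach 5 FPKM or more outside root.

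The rule fixed the direction of the contrasts with each tissue, so the following counts are given beside the share of all genes and nothing is read from them. All 246 genes were at least 2-fold higher in root than in leaf, stem, flower, flower bud, pericarp and young fruit on the log2(FPKM + 1) scale. The corresponding shares of all genes above 0 in either tissue were 18.6% for stem, 24.8% for leaf, 23.0% for flower bud, 26.1% for flower, 17.8% for young fruit and 21.7% for pericarp. For pulp the count was 245 genes (32.7% of all genes), the exception being Dlo_033240.1 with 7.87 FPKM in root and 3.65 FPKM in pulp. For seed it was also 245 genes (21.1% of all genes), the exception being dlo_037401.1 with 19.64 FPKM in root and 9.45 FPKM in seed.

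A few genes carried most of the signal. Together the 246 genes summed to 15043 FPKM in root, which was 1.49% of that library, and the 12 highest made up 52.0% of this sum. The highest, Dlo_004754.1, ranked 17 among all genes in the root library and alone gave 22.9% of the members' sum. Only 2 members stood among the 100 highest genes of the root library. In the other libraries the members' summed level was between 15.2 FPKM (pulp, 0.00159% of the library) and 109.0 FPKM (young fruit, 0.0117%).

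Dlo_004754.1 had 3438 FPKM in root, 0.59 in stem, 0.57 in young fruit, 0.47 in seed, 0.14 in pericarp, 0.14 in flower bud and 0.13 in flower, and was listed at 0 in leaf and pulp. It stood 11.08 above the next tissue on the log2(FPKM + 1) scale, and no other tissue reached 1 FPKM. Dlo_009866.1 had 966.55 FPKM in root, 0.23 in leaf and 0.29 in flower bud, and was listed at 0 in the other 6. Dlo_023825.1 had 725.46 FPKM in root, 1.88 in stem, 1.48 in young fruit, 0.54 in seed, 0.5 in pericarp, 0.39 in pulp, 0.16 in flower bud and 0.15 in flower, with leaf listed at 0. The first had traces in most tissues, the second in leaf and flower bud alone, and the third a low level in stem and young fruit. None of the 3 has an annotation in the tables used here.

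Dlo_003201.1 had 455.48 FPKM in root, 2.58 in flower, 1.03 in young fruit, 0.92 in stem, 0.35 in flower bud, 0.33 in leaf and 0.12 in seed, with pericarp and pulp listed at 0. Dlo_008847.1 had 358.67 FPKM in root, 3.73 in young fruit, 0.85 in stem, 0.23 in seed, 0.17 in flower, 0.15 in leaf and 0.1 in flower bud, with pericarp and pulp listed at 0. Dlo_027943.1 had 328.44 FPKM in root, 5.84 in stem, 4.81 in young fruit, 0.37 in pericarp, 0.26 in flower bud, 0.15 in seed, 0.16 in flower and 0.07 in leaf, with pulp listed at 0. In each of these, leaf and pulp were at or near 0 while a second organ showed a low level. Dlo_012801.1 had 313.24 FPKM in root and at most 0.38 FPKM elsewhere (young fruit), and Dlo_005743.1 had 291.57 FPKM in root and at most 0.22 FPKM elsewhere (stem). These 2 genes combined a high root level with traces elsewhere, with 7.83 and 7.91 between root and the next tissue on the log2(FPKM + 1) scale.

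The remaining 4 of the 12 highest also had a low level in a reproductive organ, as several of those above did. Dlo_001017.1 had 306.62 FPKM in root, 5.39 in young fruit, 2.89 in flower, 0.75 in stem, 0.49 in seed and 0.36 in pericarp, with leaf, flower bud and pulp listed at 0. Dlo_006353.1 had 236.99 FPKM in root, 3.62 in seed, 2.4 in flower, 0.56 in flower bud, 0.26 in leaf and 0.13 in young fruit, with stem, pericarp and pulp listed at 0. The last 2 shared a pericarp level. Dlo_012854.1 had 227.59 FPKM in root, 7.02 in pericarp, 2.32 in young fruit, 0.28 in flower and 0.3 in flower bud, with the other 4 listed at 0. Similarly, dlo_037602.1 had 166.82 FPKM in root, 5.99 in pericarp, 2.42 in young fruit, 0.1 in flower and 0.1 in seed, with the other 4 listed at 0.

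**Figure D2:**
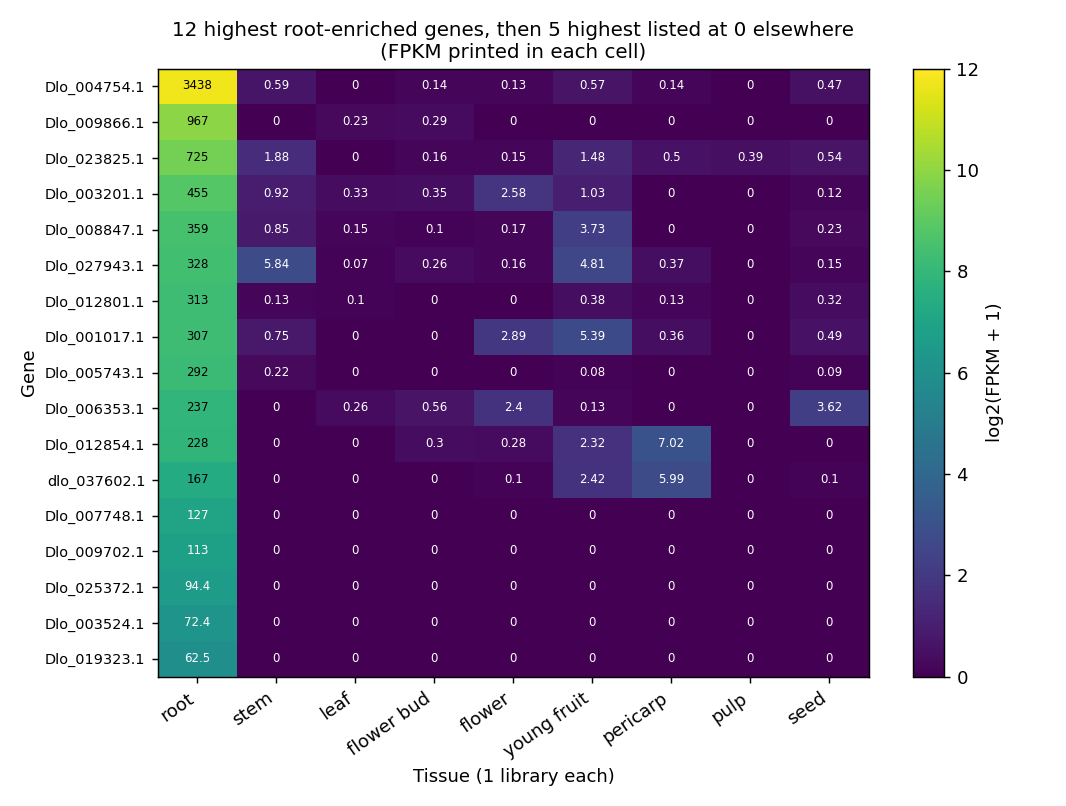
Levels of the 12 root-enriched genes with the highest root FPKM, then the 5 highest of those listed at 0 elsewhere (rows), in the 9 tissues (columns, 1 library each), as log2(FPKM + 1) by colour with the FPKM printed in each cell. Root is the bright column, from 3438 FPKM for Dlo_004754.1 to 62.53 FPKM for Dlo_019323.1, and no cell outside root exceeds 7.02 FPKM (Dlo_012854.1 in pericarp).

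The 35 genes listed at 0 outside root had a median root level of 10.05 FPKM, against 17.9 FPKM for all members. They ran from 5.12 FPKM (Dlo_004000.1) to 126.51 FPKM (Dlo_007748.1) in root. After Dlo_007748.1 came Dlo_009702.1 (113.15 FPKM), Dlo_025372.1 (94.4 FPKM), Dlo_003524.1 (72.36 FPKM) and Dlo_019323.1 (62.53 FPKM). Their share dropped with root level, from 17 of the 70 genes at 5 to 10 FPKM (24.3%), through 16 of 147 at 10 to 100 FPKM (10.9%), to 2 of 29 at 100 FPKM or more (6.90%). The median level in the next highest tissue moved the other way, at 0.465, 0.69 and 1.38 FPKM in these classes. Tau sets the levels elsewhere against the root level, so the rule allows members with a higher root level more expression elsewhere. How much of either trend comes from the rule was not tested, and nothing is read from them. A value of 0 for a gene of low level is less informative than one for a gene of high level, since traces elsewhere could go unseen. The part of this in the zeros was not tested.

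Outside root, young fruit held the most members and pulp the fewest. At 1 FPKM or more there were 32 members in young fruit, 18 in flower, 14 in flower bud, 14 in seed, 13 in stem, 7 in pericarp, 6 in leaf and 4 in pulp. Of all genes, 62.6% reached that level in young fruit, 58.0% in flower, 60.8% in flower bud, 58.9% in seed, 60.1% in stem, 58.6% in pericarp, 55.9% in leaf and 50.1% in pulp. The rule keeps members low in these tissues, so the gap from the background follows from it and only the order among tissues is described. Counting any value above 0, the order was young fruit (114 members), seed (104), flower (96), flower bud (91), stem (89), pericarp (78), leaf (55) and pulp (25). Of all genes, 75.8% were above 0 in young fruit, 74.4% in seed, 74.7% in flower, 77% in flower bud, 73.6% in stem, 72.6% in pericarp, 70.9% in leaf and 64.4% in pulp. Leaf was the deepest library by the spacing of low values and pulp the shallowest, and the part of depth in this order was not tested.

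**Figure D3:**
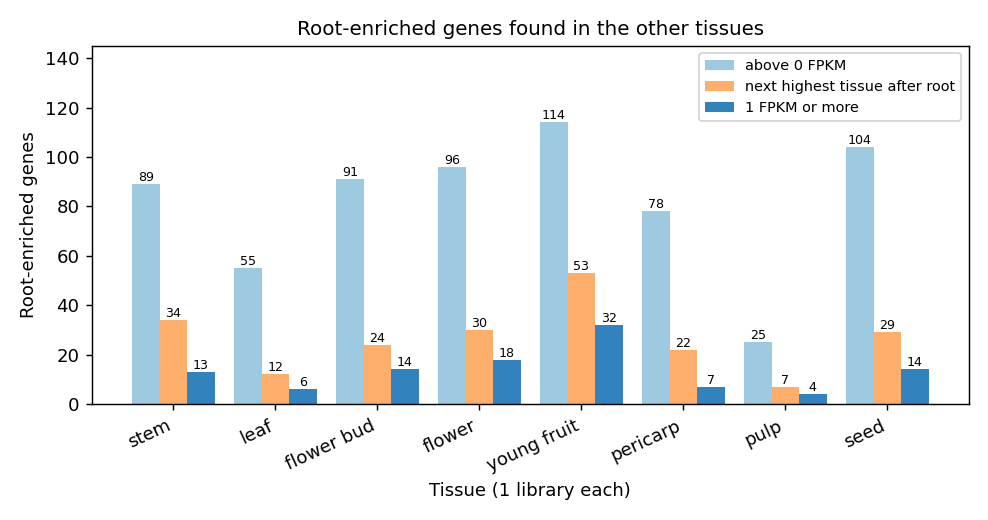
Number of the 246 root-enriched genes (y axis) listed above 0 FPKM, with that tissue as the next highest after root, and at 1 FPKM or more, in each of the other 8 tissues (x axis, 1 library each). Young fruit has the tallest bars (114, 53 and 32 genes) and pulp the shortest (25, 7 and 4 genes).

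The next highest tissue was young fruit for 53 members, stem for 34, flower for 30, seed for 29, flower bud for 24, pericarp for 22, leaf for 12 and pulp for 7, leaving the 35 listed at 0. Young fruit was thus the commonest second site among the members and pulp the rarest. Second sites were not counted for other genes highest in root. Over all genes above 0 in either tissue, the share at least 2-fold higher in root was also lowest for young fruit (17.8%) and highest for pulp (32.7%). The order is therefore not read as particular to the members. In most the second level was slight, with medians between 0.64 FPKM (stem) and 1.37 FPKM (pulp). The member with the most expression in each second tissue was Dlo_027943.1 for stem, Dlo_012854.1 for pericarp, dlo_037401.1 for seed and Dlo_033240.1 for pulp, all given above. For leaf it was dlo_035235.1, with 47.32 FPKM in root and 2.42 FPKM in leaf. For flower bud it was Dlo_005989.1, with 19.17 FPKM in root and 3.98 FPKM in flower bud. For flower it was Dlo_027389.1, with 34.98 FPKM in root, 6.2 FPKM in flower and 0 in the other 7. Young fruit had the highest second level of any member, in Dlo_007673.1, with 147.84 FPKM in root and 15.73 FPKM in young fruit.

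Some members shared a pair of second tissues. In 55 members at least 2 tissues besides root reached 0.5 FPKM, and the commonest pair was stem with young fruit (13 members, among them Dlo_004754.1, Dlo_023825.1, Dlo_008847.1 and Dlo_027943.1). Flower with flower bud followed (9 members), then flower with seed and pericarp with young fruit (6 members each). Such pairs were not counted for other genes, so their order is not read as particular to the members. The pericarp and young fruit pair included Dlo_012854.1 and dlo_037602.1, and in both the pericarp level was above that of young fruit. Pericarp is the fruit wall and a component of the young fruit, so these libraries are related in tissue. Whether this bears on the pair was not tested.

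Near the limits of the rule, membership turned on small differences. Just inside the tau limit were Dlo_033240.1 (tau 0.9006) and Dlo_027943.1 (tau 0.9012), and just outside were Dlo_012331.1 (0.8994, with 19.7 FPKM in root and 10.45 FPKM in young fruit) and Dlo_021285.1 (0.8992, with 8.78 and 2.01 FPKM). Dlo_027943.1 is at the limit in spite of 328.44 FPKM in root, because stem and young fruit each held about 5 FPKM. Just above the FPKM limit were Dlo_030309.1 (5.05 FPKM) and Dlo_007411.1 (5.09 FPKM), and just below were Dlo_009222.1 (4.97 FPKM) and Dlo_027159.1 (4.86 FPKM).

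Functions could be looked up for few members. The study's tables of genes with single nucleotide polymorphisms and of expanded gene families place 28 of the 246 genes, and 218 have no annotation here. The family lists are held in shortened form, so absence from them says nothing. As held, they contain 27 members (11%) and 7.44% of all genes in the table, and the polymorphism tables contain 1 member (0.407%) and 2.65% of all genes. Of the 27 members, 11 are in 9 families that also show an Arabidopsis gene, and the roles below are those of the Arabidopsis genes.

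UDP-glycosyltransferases move a sugar to small molecules such as hormones and phenolics, and 3 members are in families with such Arabidopsis genes. The share of such genes among all genes was not counted, so no preference of the members for this class is read from the count. Dlo_004340.1 (family of AT3G02100) had 140.07 FPKM in root, 2.21 in flower, 2 in young fruit, 1.2 in flower bud, 0.48 in leaf and 0.13 in seed, with stem, pericarp and pulp listed at 0. Dlo_007177.1 of the same family had 35.3 FPKM in root and at most 0.45 FPKM elsewhere (flower bud). Dlo_019323.1, grouped with AT5G54010, had 62.53 FPKM in root and was listed at 0 in the other 8. Of the 7 other genes shown for the family of AT3G02100, 4 reached 5 FPKM in some tissue and 2 of these were highest in root, among them Dlo_007174.1 with 76.16 FPKM in root, 55.11 in flower, 27.08 in flower bud and 20.06 in stem. By contrast none of the 5 other genes shown with AT5G54010 peaked in root, and Dlo_019328.1 had 88.04 FPKM in pulp, 30.34 in young fruit and 28.42 in root.

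Dlo_018060.1 belongs to a family with AT5G42830, an acyltransferase of the HXXXD type, a class that transfers acyl groups onto alcohols and amines. It had 8.09 FPKM in root, 0.41 in flower, 0.12 in stem and 0.11 in flower bud, with the other 5 listed at 0. Its relative Dlo_004922.1 was far higher in root (218.96 FPKM) but also had 85.4 FPKM in stem and 72.76 in flower, so it did not meet the rule. Dlo_008340.1 belongs with AT5G07000 and AT5G07010, sulfotransferases of which the latter acts on hydroxyjasmonate, a derivative of the wound hormone jasmonate. It had 10.5 FPKM in root, 1.67 in flower bud and 0.71 in flower, with the other 6 listed at 0. Its neighbours in number, Dlo_008341.1 and Dlo_008344.1, also peaked in root (113.84 and 68.38 FPKM) but held 25.78 and 23.13 FPKM in flower bud.

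Among oxidising enzymes, 2 neighbouring members fall in a family of berberine bridge enzyme-like oxidases (AT1G30760, AT2G34790 and others), flavin enzymes of the cell wall and of alkaloid chemistry. Dlo_005696.1 had 29.74 FPKM in root, 0.7 in flower, 0.2 in stem, 0.19 in flower bud, 0.15 in leaf and 0.08 in seed. Dlo_005697.1 had 12.54 FPKM in root and 2.09 FPKM in flower, with the other 7 listed at 0. The list of that family is held in part. Of its 8 other genes shown that reached 5 FPKM anywhere, 7 were highest in flower and 1 in leaf. Among them Dlo_010393.1 had 4779.59 FPKM in flower and 1.17 FPKM in root. Even so, Dlo_005691.1 held 147.45 FPKM in root beside 205.72 FPKM in flower.

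Dlo_032692.1 belongs with AT4G25650, an oxygenase of the chloroplast envelope with a Rieske iron-sulfur centre, related to the enzyme that opens the chlorophyll ring. It had 61.34 FPKM in root, 1.71 in young fruit, 0.34 in pulp, 0.27 in leaf, 0.26 in flower, 0.18 in seed and 0.14 in flower bud, with stem and pericarp listed at 0. Of the 5 other genes shown for this family, whose list is held in part, 4 peaked in root, at 165.94 FPKM (Dlo_032691.1), 150.23 FPKM (Dlo_032686.1), 59.63 FPKM (Dlo_032690.1) and 21.19 FPKM (Dlo_032687.1), all close to Dlo_032692.1 in identifier number. The exception, Dlo_032693.1, had 4.63 FPKM in root and 26.58 FPKM in flower bud. In leaf, none of the 5 root-highest genes exceeded 0.71 FPKM. Other tissues held more: Dlo_032691.1 had 33.13 FPKM in pulp and 18.63 in young fruit, and Dlo_032686.1 had 29.74 in seed and 20.79 in pulp. Dlo_032687.1 had 12.57 FPKM in flower bud, while Dlo_032690.1 had at most 3.74 FPKM outside root (seed).

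Dlo_012805.1 is the single member with a pathway annotation, as a putative farnesyl-diphosphate farnesyltransferase (squalene synthase), an enzyme that joins farnesyl diphosphate units at the entry to sterol and triterpenoid synthesis. It had 25.19 FPKM in root and 0.18 FPKM in pericarp, with the other 7 listed at 0. A transport protein is represented by Dlo_008381.1, in a family with the nodulin-like proteins of the major facilitator type AT2G28120 and AT2G39210, at 5.14 FPKM in root and listed at 0 elsewhere. Its neighbour Dlo_008382.1 showed the reverse, at 538.7 FPKM in pericarp and 0 in root. Proteolysis is represented by Dlo_000268.1, grouped with AT5G67090, a subtilisin-like serine protease, at 7.52 FPKM in root and 0.07 FPKM in stem and in young fruit. Dlo_004756.1 belongs to a family of unknown function with AT1G13470, at 10.6 FPKM in root, 1.37 in flower and 1 in flower bud.

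**Figure D4:**
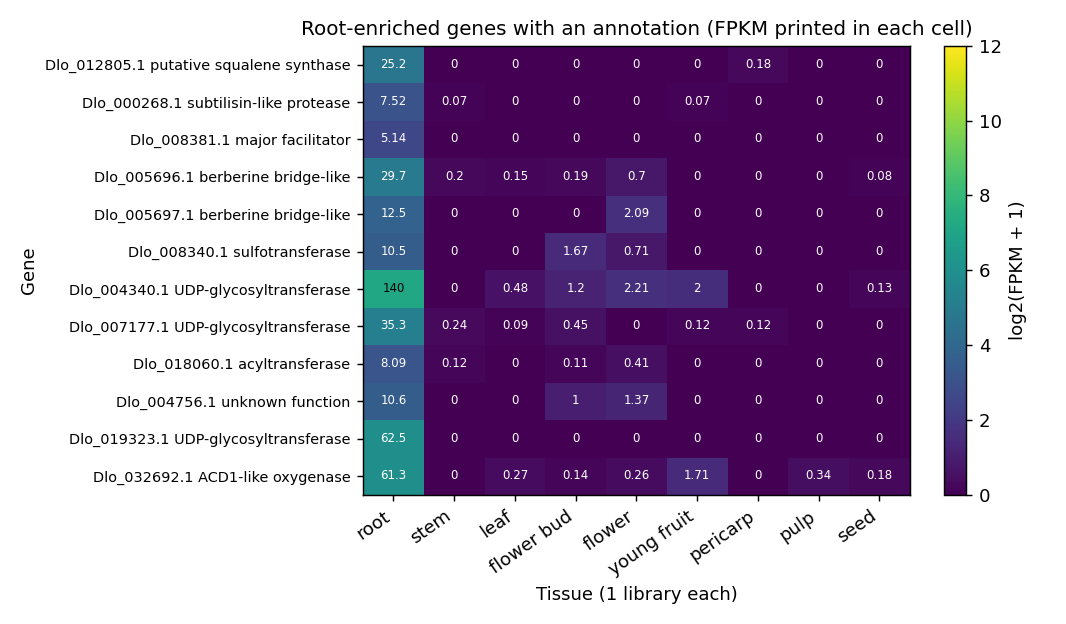
Levels of the 11 root-enriched genes in families with an Arabidopsis gene and of the putative squalene synthase gene (rows) in the 9 tissues (columns, 1 library each), as log2(FPKM + 1) by colour with the FPKM printed in each cell. Root is the brightest cell of each row, and in the rows of Dlo_004340.1, Dlo_005697.1 and Dlo_004756.1 a faint flower signal is seen (2.21, 2.09 and 1.37 FPKM). Similar signals are seen in young fruit (Dlo_004340.1 at 2 FPKM, Dlo_032692.1 at 1.71 FPKM) and flower bud (Dlo_008340.1 at 1.67 FPKM).

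The other 16 family members are in 10 families with no Arabidopsis gene shown. The highest was Dlo_007967.1 (146.95 FPKM in root), whose relative Dlo_007972.1 had 15.55 FPKM in root and 2.28 FPKM in pericarp. Dlo_004626.1 (81.86 FPKM) and Dlo_012708.1 (38.72 FPKM) shared a family, as did Dlo_004737.1 and Dlo_033559.1 (52.81 FPKM each). Dlo_015317.1 (5.21 FPKM, listed at 0 elsewhere) and Dlo_018715.1 (6.86 FPKM, with 1.82 FPKM in flower) also shared one. Dlo_025529.1, Dlo_002619.1, Dlo_012606.1, Dlo_011291.1 and Dlo_028839.1 were single members of their families, at 12.6, 6.6, 5.48, 5.96 and 5.65 FPKM in root and below 1 FPKM elsewhere. The largest group was of 3 members, Dlo_013812.1 (31.64 FPKM), Dlo_013813.1 (6.62 FPKM) and Dlo_024152.1 (32.68 FPKM). In all, 7 of the 19 families held at least 2 members. These include the family of Dlo_004737.1 and Dlo_033559.1, genes listed with the same values in every tissue. Shared families were not counted for genes enriched in other tissues, so the count is not read as particular to the members. Pooled over the 19 families, 128 other genes were in the table and 73 reached 5 FPKM in some tissue, of which 23 (31.5%) were highest in root. Among all genes reaching 5 FPKM the share was 17.4% (3315 of 19094). No test was made of this difference, since relatives can share reads and the lists are incomplete.

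Some members were close in identifier number, a feature the rule did not use. Where positions of genes could be looked up, identifiers that differ by 1 carried the same chromosome name and lay within 1 Mb in 76 of 76 pairs. At a distance of 2 to 5 the name was shared in 184 of 187 pairs, and 183 lay within 1 Mb. Close numbers were therefore read as closeness in the assembly, which was not looked up for the members themselves. Of the 246 genes, 24 (9.76%) had another member at the adjacent number and 67 (27.2%) within 5. For genes enriched in flower bud by the same rule the counts were 7 (4.05%) and 20 (11.6%) of 173, and for seed 18 (8%) and 44 (19.6%) of 225. Larger sets meet by number more often, and the difference between the sets was not tested. No share for all genes or for all genes highest in root is given here, so the counts are a description.

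The 12 adjacent pairs differed in root level by 1.24 to 12.4 times, with a median of 2.53. The closest matches in level included Dlo_025372.1 (94.4 FPKM) with Dlo_025373.1 (72.09 FPKM). The widest was Dlo_022760.1 (8.59 FPKM) with Dlo_022761.1 (106.67 FPKM). Within a distance of 5 there were 31 runs, of which 26 had 2 members and 5 had 3. The run of 3 with the highest root level held Dlo_012801.1 (313.24 FPKM in root), Dlo_012802.1 (128.16 FPKM in root, 0.39 in young fruit, 0 in the other 7) and the putative squalene synthase gene Dlo_012805.1. Between them in number, Dlo_012804.1 was listed in root alone, at 0.55 FPKM. Another run was Dlo_027332.1, Dlo_027336.1 and Dlo_027338.1, at 64.71, 9.03 and 32.15 FPKM in root, and each had seed as its next tissue (0.79, 0.1 and 1.19 FPKM). The other runs of 3 were Dlo_018859.1, Dlo_018863.1 and Dlo_018866.1 (56.92, 10.83 and 14.1 FPKM), Dlo_026844.1, Dlo_026846.1 and Dlo_026847.1 (50.28, 6.08 and 25.78 FPKM), and Dlo_001123.1, Dlo_001124.1 and Dlo_001129.1 (7.02, 5.41 and 14.9 FPKM). In the last run 4 other genes lie in between. Dlo_001125.1 (7.49 FPKM) and Dlo_001126.1 (176.9 FPKM) were highest in root, though the latter held 42.36 to 103.17 FPKM elsewhere. Dlo_001127.2 was highest in flower bud (65.11 FPKM) and Dlo_001128.1 in young fruit (40.99 FPKM).

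Some members could not be told apart by their values. There were 3 pairs of members with the same values in all 9 tissues: Dlo_004737.1 and Dlo_033559.1 (52.81 FPKM in root), Dlo_020172.1 and Dlo_027914.1 (5.84 FPKM), and Dlo_023363.1 and Dlo_020116.1 (5.2 FPKM). Whether they are near-identical copies that share reads was not tested, so these 6 genes are uncertain. They were 2.44% of the members, against 3.58% of the 19094 genes that reached 5 FPKM in any tissue. With each pair counted once there were 243 members.

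The same rule with another tissue in place of root gave 225 genes for seed, 173 for flower bud, 55 for flower, 52 for pulp, 37 for leaf, 32 for stem, 19 for young fruit and 15 for pericarp. Root thus had the longest list at these limits, and the lists of the other tissues were not recounted at other limits. However, 3315 genes were highest in root at 5 FPKM or more, of which the members were 7.42%. The corresponding shares were 10.6% of 1633 genes for flower bud and 10.5% of 2137 genes for seed. Of the root genes 14.2% were listed at 0 in the other 8 tissues, a middle place among the 9 lists, which ran from 10.8% (leaf) to 33.3% (seed), with flower bud at 19.7%. Their median level in the main tissue was alike, at 17.9 FPKM for root, 15.4 FPKM for flower bud and 19.3 FPKM for seed. The root genes made up 1.49% of their library, below flower bud (2.19%) and seed (14.3%, where 1 gene reached 39585 FPKM) and above the other 6 tissues (0.0191% to 0.469%). With 1 library per tissue these differences could not be tested.

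**Figure D5:**
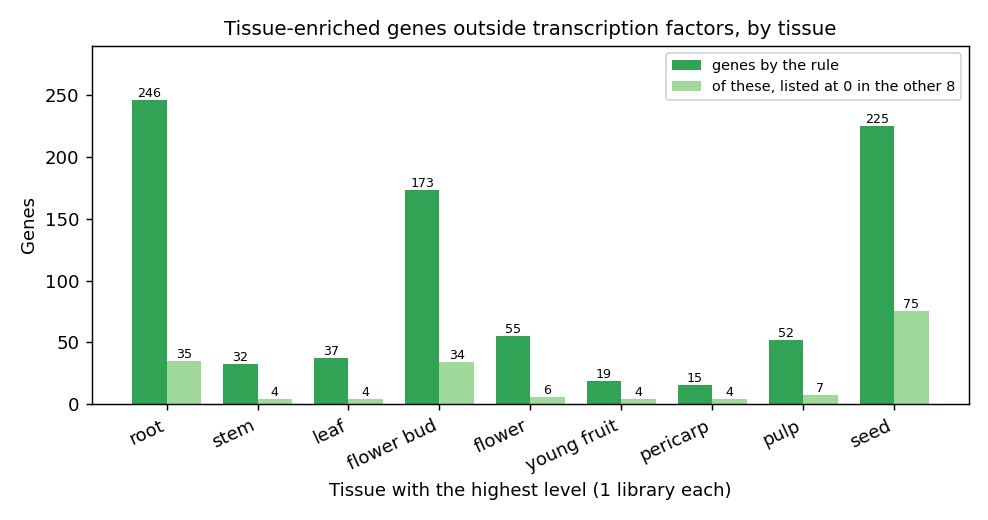
Number of genes outside the transcription factor list that met the same rule in each tissue (x axis, 1 library each; y axis, genes), with those listed at 0 in the other 8 tissues as lighter bars. Root (246 genes, 35 at 0), seed (225, 75) and flower bud (173, 34) stand above the other 6 tissues, which have 15 to 55 genes.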

How the data were processed

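The authors sequenced total RNA of 9 longan tissues ("SJM"), with 1 library per tissue. The deposited table gives FPKM for 30014 genes, rounded to 2 decimals. Per the submitters' processing notes the reads were aligned with TopHat2 2.0.10. The program that made the FPKM was not given in the sources used here, nor was a build name of the genome. FPKM are scaled to each library's total, so a few very high genes lower all others in that library, and reads of near-identical genes may be shared.

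Values were used as log2(FPKM + 1). Tau was computed over the 9 tissues and members were taken at 0.9 or more, with root highest and at 5 FPKM or more, leaving out 1611 listed transcription factor genes (1529 in the table). A gene was called higher in root at a difference of 1 on the log2 scale, over genes above 0 in either tissue. No count model was used, because the table holds no counts. Relative depth was taken from the spacing of values in genes of at most 2 FPKM. The scripts ran under Python 3.11.15 with matplotlib 3.10.9, pandas 2.3.3, scipy 1.17.1 and numpy 2.4.6.

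The members and lists were chosen with earlier results of these data known. Named genes were the 12 highest members, the 5 highest listed at 0 elsewhere, the highest member for each next tissue, annotated members, the longest runs of identifier numbers, and the 2 genes on each side of both limits. Other genes of a family or run, adjacent and equal-valued pairs, were named after their values were seen. Alternatives were the value added before the log, the limits, a median-ratio scaling over 12039 genes, and leaving out each tissue. Sequences of these genes were not used here.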

Additional observations from a re-analysis of the deposited data

How the results depend on the processing

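Each tissue has 1 library, so no error or test stands behind any value, and a gene of low level may be listed at 0 through depth alone. No paired analysis was possible because no tissue has replicates. The 246 genes became 138 when FPKM was divided by 0.1 before adding 1 and taking the log, 417 when divided by 5, 846 without the log, 370 at tau 0.85, 155 at tau 0.95, 840 with no FPKM minimum and 458 with a minimum of 1 FPKM. With a minimum of 10 FPKM there were 176, with median-ratio scaling 239 (236 shared with the 246), and with the transcription factors kept 268. Leaving out 1 tissue gave 236 (without pulp) to 280 genes (without young fruit). The 35 genes listed at 0 elsewhere became 157 when values under 1 FPKM counted as 0, 110 with a root minimum of 1 FPKM, 18 with 10 FPKM, and 36 without pulp, an alternative chosen after seeing the data. The median difference of 3.51 became 5.0 with 0.1 in place of the added 1, 1.94 with 5, 3.47 after scaling and 4.16 for members at 10 FPKM or more. Counting a next tissue only at 1 FPKM or more left 25 members for young fruit, 13 for flower, 12 for seed, 11 for stem, 11 for flower bud, 7 for pericarp, 6 for leaf and 4 for pulp. After scaling, young fruit remained first with 42 members, followed by flower (37) and stem (35). Without the 10 highest members the share of the root library was 0.759% in place of 1.49%. The 24 members with an adjacent member became 45 within a distance of 2, 67 within 5, 49 with a minimum of 1 FPKM and 14 with 10 FPKM. Looser limits admit more genes by construction, and other causes were not tested.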
